A study of Homo sapiens with 6 samples.

Results

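The transcripts of 31 p53 target genes and cell-cycle inhibitors were followed in SW839, an established line of renal cell carcinoma cells, after knockdown of the E3 ubiquitin ligase RNF25. The members were chosen by symbol from the 30267 genes listed in a table of normalized read counts, and all 31 were found. The study knocked down RNF25 to ask how it acts on apoptosis. Total RNA was sequenced from 3 libraries of cells with an RNF25 short hairpin (shRNF25) and 3 libraries of cells with the pLKO control vector (shControl). Both groups were the same line in the same serum-containing medium, without a drug. According to the methods of the study, hairpins were delivered by lentivirus and stable cells were selected with puromycin. A single hairpin name is given for the 3 knockdown libraries, without its sequence. The treatment text of all 6 samples, controls included, names the shRNF25 plasmid, so the groups rest on titles and genotype labels. The design text speaks of biological triplicates, but the labels do not say whether the libraries came from separate cultures, and the p-values measure the spread between these libraries only.

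The transcription factor p53 is activated by DNA damage and other stress and switches on genes that stop the cell cycle, repair DNA, adjust metabolism or lead to cell death. Several of its targets act back on it. MDM2 is the ubiquitin ligase that marks p53 for degradation, and it is itself a p53 target. The cell-cycle arm runs through inhibitors of cyclin-dependent kinases. CDKN1A, which encodes p21, and CDKN1B, which encodes p27, belong to the CIP/KIP family, whereas CDKN2A and CDKN2B belong to the INK4 family, which blocks CDK4 and CDK6 and so keeps the retinoblastoma protein RB1 in its growth-restraining form. Most p53 targets also respond to other factors, so their transcripts are not a direct reading of p53 activity.

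The 6 libraries held 18647460 to 19943154 reads on genes. RNF25, the target of the hairpin, had normalized counts of 694.2, 533.5 and 536.4 in shControl and 214.1, 245.7 and 265.0 in shRNF25, without overlap (log2 fold change -1.27, SE 0.15, limma adjusted p = 0.000585). Here and below, values are given for replicates 1, 2 and 3 of each group in that order, log2 fold changes are shRNF25 over shControl on the log2(normalized count + 1) scale, and adjusted p-values are Benjamini-Hochberg values of limma over the 16554 genes that passed the filter on low values. The exact permutation test of 3 against 3 libraries cannot go below 0.1. The control libraries differed more among themselves than the knockdown libraries, with pairwise Pearson correlations of 0.976 to 0.987 over all tested genes, compared with 0.994 within shRNF25. Of the renal markers, KRT8 and KRT18 were abundant (15768 to 38009) and PAX8 was present (76.7 to 140.3), while CA9, a marker of clear cell carcinoma, lay between 1.85 and 50.7. VIM, which encodes the intermediate filament vimentin, rose from 447.7, 415.5 and 202.9 to 803.7, 881.9 and 810.2 (log2 fold change 1.31, limma adjusted p = 0.00805), whereas PAX8 had -0.45 (limma adjusted p = 0.11). KRT8 and KRT18 did not pass the test (0.38 and 0.09, limma adjusted p = 0.111 and 0.596). NDUFA4L2 was low, at 10.5 to 33.5 (-0.2, limma adjusted p = 0.796), and CA9, below the filter, had means of 23.6 in shControl and 4.94 in shRNF25. Summed over the 6 renal markers in the table, levels were 38566 to 50141 in shControl and 53872 to 57734 in shRNF25. This sum is almost wholly KRT8 and KRT18 and says little about the other markers. Of 6 leukocyte, endothelial and hepatocyte markers, none was at 0 in all libraries, and their sum was 474.0 to 681.0 in shControl and 426.1 to 575.0 in shRNF25. CD3E and ALB were at or near 0 (at most 3.24), and PTPRC and CD14 lay between 2.16 and 14.6. The endothelial gene CDH5 was lower with the knockdown (73.0, 102.6 and 198.6 against 3.64, 8.31 and 5.72, log2 fold change -4.12). All its shRNF25 values were below 10, so it passed the filter only through the shControl libraries and no p-value is given. PECAM1, another endothelial gene, was at 349.9 to 549.4 over the 6 libraries and did not pass the test (0.17, limma adjusted p = 0.505). The part of any other cell type in the values below was not tested.

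Of the 31 members, 30 passed the filter on low values. A member was called changed when the limma adjusted p was below 0.05 and the fold change at least 1.5, the criteria of the study. MDM2, CDKN1A and PLK3 fell, TIGAR, TRIAP1 and CDKN2B rose, and the other 24 were not called. The 3 members called lower compare with 7.1% of all tested genes, and the 3 called higher with 8.65%. Without the fold limit 4 members were lower and 4 higher, against 10.8% and 10.5% of all tested genes. The additional members were TP53INP1 (lower) and RRM2B (higher). In 11 of the 30 members (36.7%) the groups were without overlap, 6 lower and 5 higher, compared with 42.5% of all tested genes. The median log2 fold change of the 30 was -0.02, with 16 below 0 and 14 above, and the median over all tested genes was -0.01. The median absolute change was 0.2 among members and 0.28 over all genes. The members thus moved in both directions, and their shares of called and separated genes lay near those of the whole table. In bulk RNA, fewer cells that express a gene and less RNA per cell cannot be told apart.

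**Figure D1:**
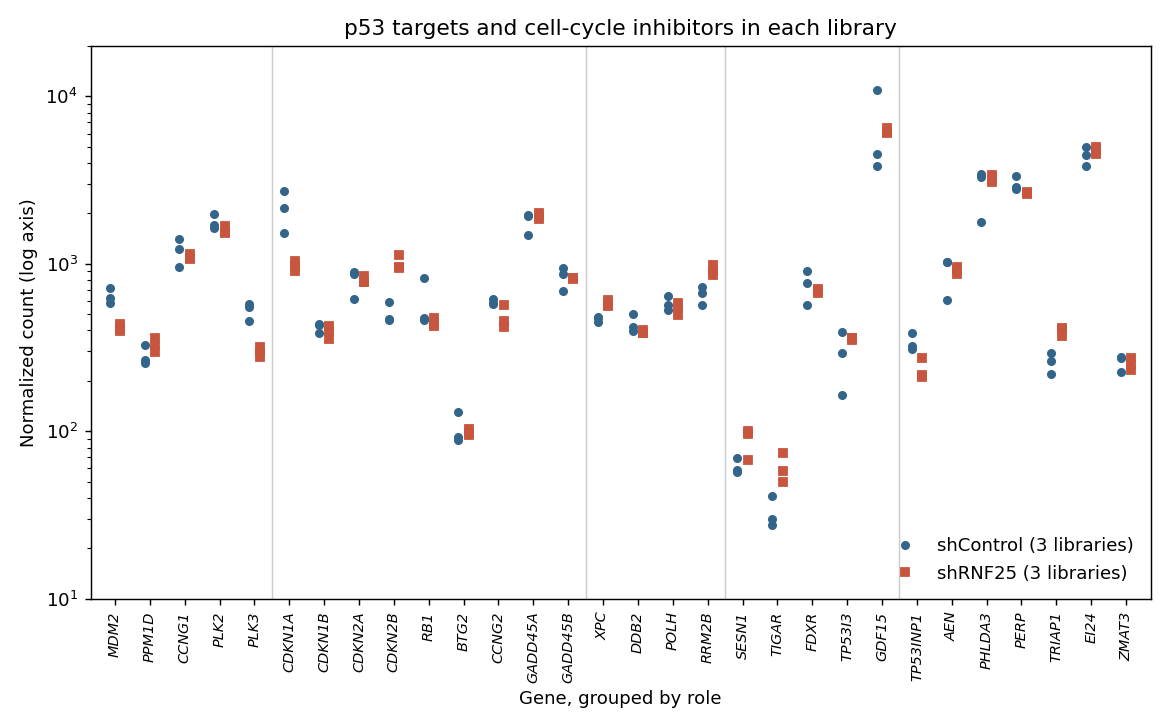
Normalized count of each tested member in each library, on a log axis, with genes grouped by role between the grey lines (circles, 3 shControl libraries; squares, 3 shRNF25 libraries). CDKN1A, MDM2 and PLK3 squares lie below all circles and CDKN2B, TIGAR and TRIAP1 squares above them, while 1 shControl library stands apart for GDF15 and RB1.

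**Figure D2:**
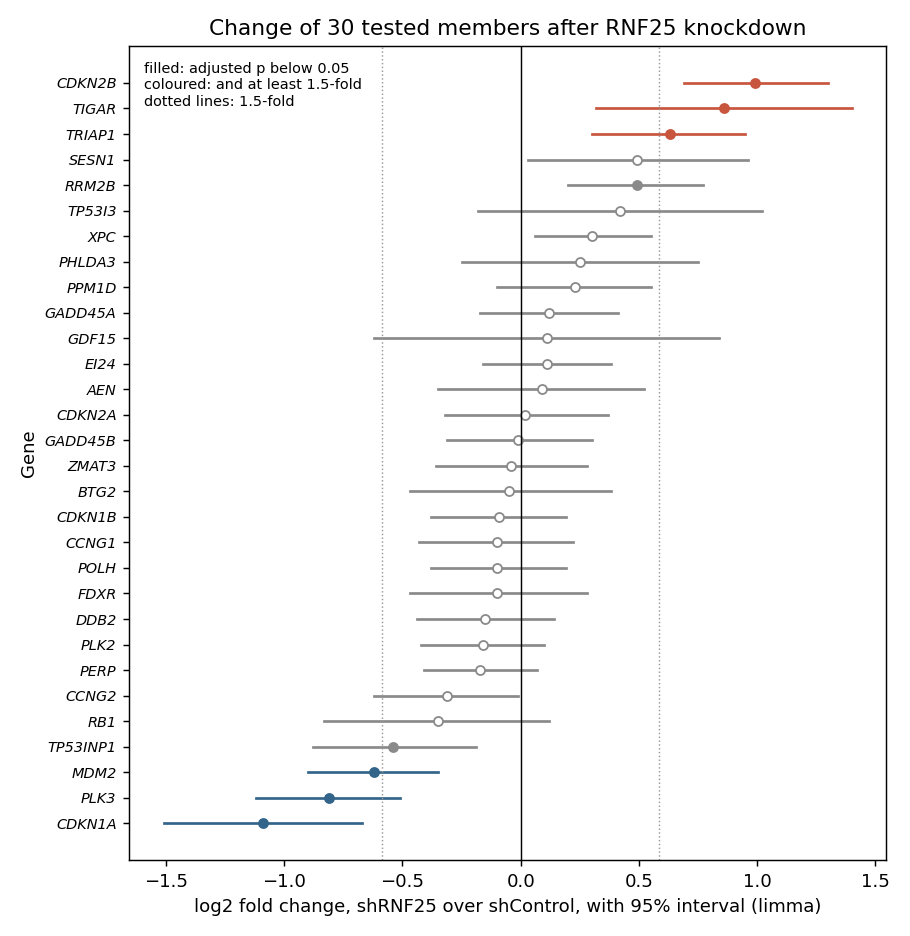
Log2 fold change of the 30 tested members, shRNF25 over shControl, with 95% intervals from limma. Filled points have an adjusted p below 0.05, coloured points also reach the 1.5-fold change shown by the dotted lines, and the estimates run from -1.09 for CDKN1A to 0.99 for CDKN2B.

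Among 5 genes that act back on p53, 2 fell and none rose, where 7.1% of all tested genes were called lower and 8.65% higher. The summed level of the 5 was 4270 to 4603 in shControl and 3694 to 3759 in shRNF25. MDM2 had normalized counts of 713.0, 581.8 and 622.7 in shControl and 437.4, 396.2 and 407.0 in shRNF25. Every knockdown library lay below every control library, and the mean went from 639.2 ± 67.2 (SD, n = 3) to 413.5 ± 21.4 (SD, n = 3), 1.54-fold lower. The log2 fold change was -0.62 (SE 0.122, limma adjusted p = 0.00724). The call ended without shRNF25 replicate 2 (limma adjusted p = 0.0502), and the change fell short of the fold limit without shControl replicate 1 (-0.54) and with quantile normalization (-0.56). MDM2 lies on chromosome 12 from 68808176 to 68850686 on the plus strand (GENCODE 29, GRCh38). CPM, a carboxypeptidase gene on the other strand, overlaps it and fell as well, from a mean of 103.2 to 48.2 (log2 fold change -1.09, limma adjusted p = 0.00338). The strand setting of the authors' counting is not given in the sources used here, so reads of such a pair may not be fully told apart.

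PLK3, a stress-responsive kinase of the polo-like family, had 453.2, 574.6 and 554.8 in shControl and 320.7, 296.4 and 278.3 in shRNF25. The groups did not overlap, with means of 527.5 ± 65.1 (SD, n = 3) and 298.5 ± 21.3 (SD, n = 3), and the log2 fold change was -0.81 (SE 0.135, limma adjusted p = 0.00338). TCTEX1D4, on the other strand of the PLK3 locus, had far fewer reads, with means of 6.04 in shControl and 16.6 in shRNF25. All its shControl values were below 10, so it passed the filter only through the shRNF25 libraries and no p-value is given. PLK2, a related kinase with a role in centriole duplication, was at 1709, 1626 and 1996 against 1521, 1556 and 1678, with overlapping groups (-0.16, limma adjusted p = 0.346). PPM1D, the phosphatase WIP1 that removes activating phosphates from p53 and its kinases, had a log2 fold change of 0.23 (limma adjusted p = 0.303), which was 0.34 without shControl replicate 1 (limma adjusted p = 0.0443). CCNG1, a cyclin that helps to activate MDM2, had -0.10 (limma adjusted p = 0.644). Neither group pair was separated.

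MDM2 is known for a promoter inside its own gene that p53 activates, and a stretch of it is shown because MDM2 is the member with the classical feedback role. The 190 bases below end 61 bases before a RefSeq start (GRCh38.p14, chr12:68808767-68808956, plus strand). In GENCODE 29 they fall in an intron of MDM2 and in no exon. The capitals mark a GC box (GGGCGG, either strand) and a p53 site of 20 bases made of 2 abutting half-sites, with up to 2 mismatches allowed.
MDM2: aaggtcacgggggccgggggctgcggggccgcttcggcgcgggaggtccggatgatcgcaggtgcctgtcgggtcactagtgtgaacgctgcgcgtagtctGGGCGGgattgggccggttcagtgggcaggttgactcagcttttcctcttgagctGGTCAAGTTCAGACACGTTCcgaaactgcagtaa
This p53 site is a match of letters and not a measurement of binding.

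Of 9 cyclin-dependent kinase inhibitors, RB1 and growth arrest genes, CDKN1A fell and CDKN2B rose, and these were the lowest and the highest estimates of all tested members. Over all tested genes 7.1% were called lower and 8.65% higher. CDKN1A, whose product p21 is the best known effector of p53-dependent arrest, had normalized counts of 1529, 2145 and 2711 in shControl and 1046, 906.0 and 969.4 in shRNF25. All knockdown libraries were lower than all control libraries, and the controls themselves spread widely. The mean went from 2128 ± 591.3 (SD, n = 3) to 973.8 ± 70.1 (SD, n = 3), with a log2 fold change of -1.09 (95% interval -1.51 to -0.67, SE 0.188, limma adjusted p = 0.00393). Leaving out each library in turn gave -1.31 to -0.90, with the call kept each time. CDKN1A lies on chromosome 6 from 36676460 to 36687339 on the plus strand. The antisense transcript DINOL at this locus was listed at no more than 2.05 in any library.

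CDKN2B, which encodes the INK4 inhibitor p15 and is known as a target of TGF-beta signaling, changed in the opposite direction. It had 458.8, 469.9 and 589.3 in shControl and 1122, 952.1 and 944.6 in shRNF25. The lowest knockdown library was above the highest control library, with means of 506.0 ± 72.4 (SD, n = 3) and 1006 ± 100.1 (SD, n = 3), 1.99-fold higher. The log2 fold change was 0.99 (95% interval 0.69 to 1.30, SE 0.136, limma adjusted p = 0.00132), and it was 0.91 to 1.11 with any library left out. CDKN2B lies on chromosome 9 from 22002903 to 22009363 on the minus strand, next to CDKN2A (21967753 to 21995301). CDKN2A, which encodes p16 and ARF, was at 896.5, 616.6 and 873.1 in shControl and 775.4, 775.7 and 842.6 in shRNF25. Its groups overlapped, and the log2 fold change was 0.02 with a 95% interval of -0.32 to 0.37 (limma adjusted p = 0.931). Gene-level counts do not tell p16 from ARF. CDKN2B-AS1, an antisense RNA whose gene overlaps at least part of both, had means of 68.2 and 77.0 (0.17, limma adjusted p = 0.545).

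The sequences upstream of CDKN1A and CDKN2B are shown because these had the lowest and the highest log2 fold change of the tested members. Each run ends 61 bases before the RefSeq start (GRCh38.p14). The CDKN1A stretch is chr6:36678464-36678653 on the plus strand, inside an intron of longer CDKN1A transcripts, and its first bases overlap the exon of DINOL on the other strand. The CDKN2B stretch is chr9:22009366-22009555, read on the minus strand, just upstream of the gene and within introns of CDKN2B-AS1 and AL359922.1. Capitals mark GC boxes on either strand.
CDKN1A: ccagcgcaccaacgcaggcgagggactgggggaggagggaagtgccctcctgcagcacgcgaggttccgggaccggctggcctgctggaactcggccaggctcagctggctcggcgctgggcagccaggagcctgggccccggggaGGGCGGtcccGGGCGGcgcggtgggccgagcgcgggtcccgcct
CDKN2B: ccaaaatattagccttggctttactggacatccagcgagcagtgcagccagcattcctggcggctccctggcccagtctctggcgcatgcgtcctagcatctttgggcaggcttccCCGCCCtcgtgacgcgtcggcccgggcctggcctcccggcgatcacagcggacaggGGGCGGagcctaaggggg
Both stretches hold 2 GC boxes, and neither 250-base window holds the p53 site searched for. The p53 sites known for CDKN1A lie farther upstream, outside this window.

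The other growth arrest genes did not pass the test. CDKN1B was at 440.0, 430.9 and 385.3 in shControl and 399.1, 424.8 and 353.6 in shRNF25, with overlapping groups (-0.09, limma adjusted p = 0.629). RB1 had 825.8, 464.8 and 477.0 against 423.7, 435.9 and 473.7. Only shControl replicate 1 stood apart there, and the log2 fold change of -0.35 (limma adjusted p = 0.258) was -0.09 without it. LPAR6, on the other strand of the RB1 locus, rose (0.98, limma adjusted p = 0.00594). RCBTB2, also on that strand, was at 8.84, 25.7 and 10.8 in shControl and 101.1, 70.2 and 62.0 in shRNF25 (2.40). The first of its shControl values was below 10, so it passed the filter only with the shRNF25 libraries and no p-value is given. CCNG2, an unusual cyclin that restrains proliferation, was lower in every shRNF25 library (585.9, 572.5 and 615.2 against 564.0, 419.3 and 454.7) but did not pass (-0.31, limma adjusted p = 0.132). BTG2, an antiproliferative cofactor of mRNA deadenylation, had -0.05 (95% interval -0.47 to 0.38). The stress-induced genes GADD45A and GADD45B had 0.12 and -0.01 (limma adjusted p = 0.544 and 0.983). GADD45B was at 685.4, 874.2 and 944.4 in shControl and at 828.3, 816.4 and 827.4 in shRNF25.

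**Figure D3:**
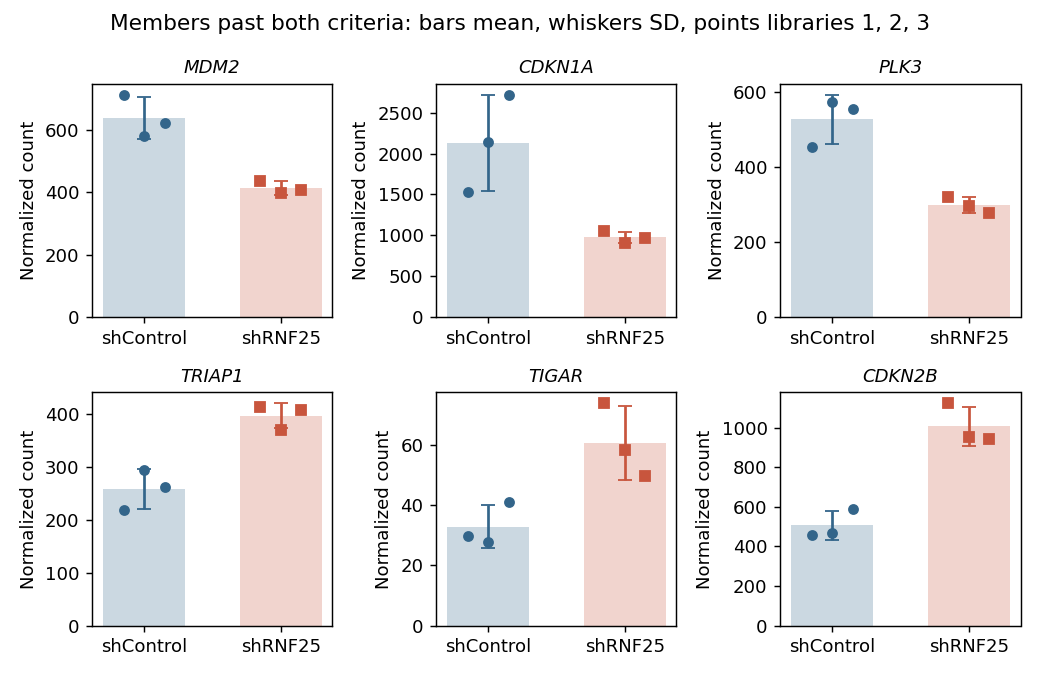
Normalized counts of the 6 called members, with linear axes that start at 0. Bars are group means, whiskers SD and points libraries 1, 2 and 3 from left to right. MDM2, CDKN1A and PLK3 are lower in every shRNF25 library, and TRIAP1, TIGAR and CDKN2B higher.

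In the group of DNA repair and nucleotide supply, no member of 4 was called, and RRM2B passed the adjusted p alone. For all tested genes the shares called were 7.1% lower and 8.65% higher. RRM2B, the p53-inducible subunit of ribonucleotide reductase, had 726.3, 671.0 and 568.8 in shControl and 908.5, 858.9 and 983.7 in shRNF25. The groups were separated, with a log2 fold change of 0.49 (SE 0.126, limma adjusted p = 0.0241), under the fold limit. Its adjusted p was above 0.05 without any one of shRNF25 replicates 1, 2 and 3 (0.0986, 0.0718 and 0.128 with limma). XPC, which recognizes damaged DNA at the start of nucleotide excision repair, was also higher in every shRNF25 library, at 473.1, 451.5 and 483.5 against 559.5, 604.9 and 575.7. Its log2 fold change of 0.30 did not pass with all libraries (limma adjusted p = 0.0759), and it passed without shControl replicate 1 (0.0218) and with quantile normalization (0.0426), under the fold limit. DDB2, another damage sensor, had -0.15 (limma adjusted p = 0.436), and POLH, a translesion DNA polymerase, had -0.10 (limma adjusted p = 0.627). GTPBP2, on the other strand of the POLH locus, fell (-0.88, limma adjusted p = 0.000688).

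Of 5 metabolic and redox genes, TIGAR rose and the other 4 were not called. Among all tested genes 7.1% were called lower and 8.65% higher. TIGAR, a phosphatase that lowers fructose-2,6-bisphosphate and so slows glycolysis, was the member with the lowest level per kilobase that passed the filter. Its normalized counts were 29.8, 27.7 and 41.0 in shControl and 73.8, 58.2 and 49.6 in shRNF25, from 27, 27 and 38 reads and 81, 63 and 52 reads. The groups did not overlap, but the nearest libraries were close, and the means were 32.9 ± 7.15 (SD, n = 3) and 60.5 ± 12.3 (SD, n = 3). The log2 fold change was 0.86 (SE 0.240, limma adjusted p = 0.0321). This call ended without shControl replicate 2 (limma adjusted p = 0.0867) and without shRNF25 replicate 1, 2 or 3 (0.151, 0.103 and 0.0598 with limma), with no filter on low values (0.0578) and with quantile normalization (0.0527).

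SESN1, a stress-induced inhibitor of mTORC1, had 69.6, 58.5 and 57.2 against 101.1, 96.0 and 67.7, with a log2 fold change of 0.49 that did not pass (limma adjusted p = 0.122). TP53I3, a quinone oxidoreductase, and GDF15, a secreted stress cytokine, had knockdown values inside the control range. TP53I3 was at 164.7, 293.4 and 390.7 in shControl and 361.7, 351.9 and 359.4 in shRNF25 (0.42, limma adjusted p = 0.288). GDF15 was at 3850, 4529 and 10983 in shControl and 6484, 6053 and 6156 in shRNF25. The third control library decides the GDF15 estimate, which was 0.11 with all libraries (limma adjusted p = 0.836), 0.58 without shControl replicate 3 (limma adjusted p = 0.00938) and -0.18 without shControl replicate 1. FDXR, the mitochondrial ferredoxin reductase, had -0.10 with all libraries and -0.28 without shControl replicate 1 (limma adjusted p = 0.716 and 0.0399).

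Of 8 genes of cell death and survival, 7 were tested, and TRIAP1 was the one called. The shares called among all tested genes were 7.1% lower and 8.65% higher. TRIAP1, a small mitochondrial protein that protects from p53-dependent apoptosis, had 218.9, 294.5 and 262.3 in shControl and 412.8, 370.3 and 408.0 in shRNF25. All knockdown libraries were higher, with means of 258.5 ± 37.9 (SD, n = 3) and 397.0 ± 23.2 (SD, n = 3) and a log2 fold change of 0.63 (SE 0.143, limma adjusted p = 0.0146). The call ended without shRNF25 replicate 1, 2 or 3 (limma adjusted p = 0.0803, 0.0507 and 0.0765), and without shControl replicate 1 the change of 0.51 was under the fold limit. TP53INP1, which promotes autophagy and p53 phosphorylation, moved the other way, with 309.5, 324.2 and 384.2 against 274.3, 212.4 and 215.4. Its groups were separated (log2 fold change -0.54, SE 0.153, limma adjusted p = 0.0351), under the fold limit. The adjusted p of TP53INP1 was 0.0514 with no filter on low values and up to 0.154 with a library left out, in limma.

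The remaining members of this group did not pass. PERP, a membrane protein of desmosomes that takes part in apoptosis, was slightly lower in every shRNF25 library, at 2788, 2862 and 3325 against 2601, 2662 and 2687 (-0.17, limma adjusted p = 0.282). PHLDA3, which blocks AKT at the membrane, had 1778, 3281 and 3450 in shControl and 3401, 3096 and 3220 in shRNF25, so that 1 control library lay far below the rest (0.25, limma adjusted p = 0.459). AEN, a nuclease induced by p53, had the same low library (610.2, 1028 and 1027 against 874.7, 918.9 and 958.9, log2 fold change 0.09). EI24, an autophagy protein of the endoplasmic reticulum, and ZMAT3, an RNA-binding regulator of splicing, had 0.11 and -0.04 (limma adjusted p = 0.542 and 0.865). SPATA18, which acts in mitochondrial quality control, was below the filter. It had no read in any shControl library and 10, 5 and 3 reads in shRNF25. Its shRNF25 mean of 5.53 normalized counts was 5.17-fold a floor of 3 reads over the control group. This ratio takes no account of error in the shRNF25 mean, and the difference rests on 18 reads in all.

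For 5 pairs of related members the log2 ratio of the partners was taken within each library, which removes any scaling of the library. The ratio of CDKN1A to CDKN1B was 1.79, 2.31 and 2.81 in shControl and 1.39, 1.09 and 1.45 in shRNF25, a difference of -1.0 between the group means. The ratio of CDKN2A to CDKN2B went from 0.97, 0.39 and 0.57 to -0.53, -0.30 and -0.16, a difference of -0.97, and so changed sign. The ratio of PLK2 to PLK3 went from 1.91, 1.5 and 1.85 to 2.24, 2.39 and 2.59, a difference of 0.65. In these 3 pairs the groups did not overlap, and partners in the same family changed unequally. GADD45A to GADD45B was also separated, by only 0.13, and each of these 4 pairs had p = 0.1 in the two-sided exact permutation test, the smallest it can give, or 0.125 adjusted over the 5 pairs. CCNG1 to CCNG2 overlapped (difference 0.21, exact permutation p = 0.5).

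The families of these inhibitors were completed with their remaining genes, of which CDKN1C and CDKN2D were named after their values were seen. CDKN2C, which encodes the INK4 inhibitor p18, rose from 385.8, 456.6 and 410.1 to 874.7, 1020 and 988.5 (log2 fold change 1.20, SE 0.120, limma adjusted p = 0.000262), again without overlap. CDKN1C, which encodes p57, had -0.68 and CDKN2D, which encodes p19, had -0.23, and neither passed (limma adjusted p = 0.0677 and 0.566). These families are too small to set against the 7.1% of all tested genes called lower and 8.65% called higher, and no difference between them was tested.

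**Figure D4:**
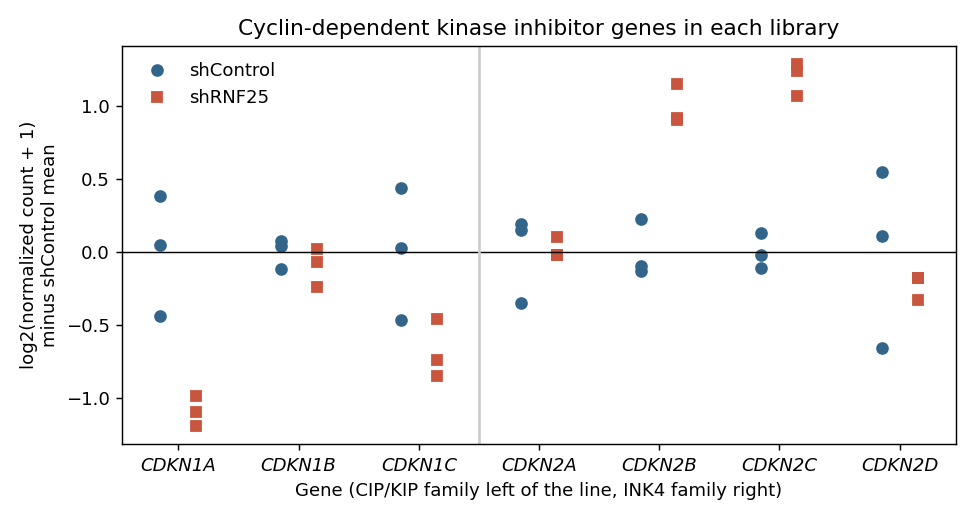
Log2(normalized count + 1) of 7 cyclin-dependent kinase inhibitor genes in each library, minus the shControl mean of the gene (circles, shControl; squares, shRNF25). The squares of CDKN2B and CDKN2C lie above all circles and those of CDKN1A below them, and CDKN1B, CDKN1C, CDKN2A and CDKN2D overlap.

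Levels can be compared between genes only per length, and normalized counts per kilobase of merged exons were used for this. In shControl the highest levels per kilobase were those of GDF15 (3092), EI24 (1242), PHLDA3 (903.9) and GADD45A (865.5), followed by CDKN1A (697.9) and PERP (697.3). TIGAR (8.18) and SESN1 (12.1) were at the other end of the tested members. MDM2 (48.1) was below CDKN2A (183.7) and CDKN2B (124.7). In shRNF25 the level per kilobase of CDKN1A was 319.3 and that of CDKN2B 247.9, above CDKN2A at 184.3. Merged exons include those of rare transcripts, which lowers the level per kilobase of genes with many annotated isoforms such as MDM2.

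Most members varied more among the control than among the knockdown libraries. The coefficient of variation was larger in shControl for 25 of the 30 members, with a median of 14.2% among control and 5.21% among knockdown libraries, and over all tested genes the medians were 18.2% and 6.7%. Of the 3 control libraries, replicate 1 was the lowest in 14 of 30 members (46.7%) and the highest in 11 (36.7%), against 39.5% and 40.7% of all tested genes. Replicate 3 was the highest in 13 members (43.3%) and the lowest in 6 (20.0%), against 31.6% and 31.8% of all tested genes. Leaving out shControl replicate 1 reversed the sign of 7 members, none of them called, with estimates from -0.10 for CCNG1 to 0.25 for PHLDA3. CDKN1A, TP53I3, GDF15, PHLDA3, CDKN2B, TP53INP1, GADD45B and PERP all had their lowest control value in replicate 1 and their highest in replicate 3. The share of all tested genes with this order was not computed. The library names of the controls differ in form, whereas those of the knockdown are numbered in series. What sets these control libraries apart was not tested.

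Further lists of the pathway, compiled for this comparison, were read in the same fit. Of 20 genes in a list on the regulation of p53, 1 rose and none fell, with a median log2 fold change of 0.01. The riser was CREBBP, an acetyltransferase that acts on p53 (0.66, limma adjusted p = 0.0156), whose call ended without shRNF25 replicate 1, 2 or 3 (limma adjusted p = 0.0577, 0.0779 and 0.0595). Of 50 further p53 targets, 46 were tested, 4 fell and 2 rose, with a median of -0.06, and the shares called in the whole table were 7.1% lower and 8.65% higher. Of those that fell, PLTP, FAS and TNFAIP8 fell by 0.70, 0.65 and 0.65 (limma adjusted p = 0.0178, 0.026 and 0.0242), and these calls ended without any one of the shRNF25 libraries, with adjusted p between 0.0603 and 0.107 in limma. The calls of PLTP and TNFAIP8 also ended without shControl replicate 2 and replicate 3 respectively (limma adjusted p = 0.0645 and 0.0547). Changes were under the fold limit without shControl replicate 1 for FAS (-0.50) and TNFAIP8 (-0.55), without shControl replicate 2 for CREBBP (0.51) and without shControl replicate 3 for PLTP (-0.57). FAS is a death receptor, and TNFAIP8 is a survival factor induced by TNF. KITLG, the ligand of the receptor KIT, and CMBL, a hydrolase, rose (1.56 and 0.67, limma adjusted p = 0.00127 and 0.00538).

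Among 29 other inhibitors and partners of the RB-E2F pathway, 28 were tested, 4 fell and 1 rose, with a median of -0.18. Of all tested genes 7.1% were called lower and 8.65% higher. In the list 22 of 28 estimates were below 0, compared with 8478 of all 16554 tested genes. CCNE1 and CDK2, which together drive entry into DNA replication, fell by 0.79 and 0.60 (limma adjusted p = 0.00373 and 0.00494). CDK6, the kinase that INK4 proteins block, fell by 0.76 (limma adjusted p = 0.00626). MYC, a transcription factor that promotes growth, fell by 0.75 (limma adjusted p = 0.00269). The single riser was CDKN2C. The change of CDK2 was under the fold limit with quantile normalization (-0.52), with edgeR (-0.57), and without shControl replicate 1 (-0.56) or shRNF25 replicate 1 (-0.54).

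**Figure D5:**
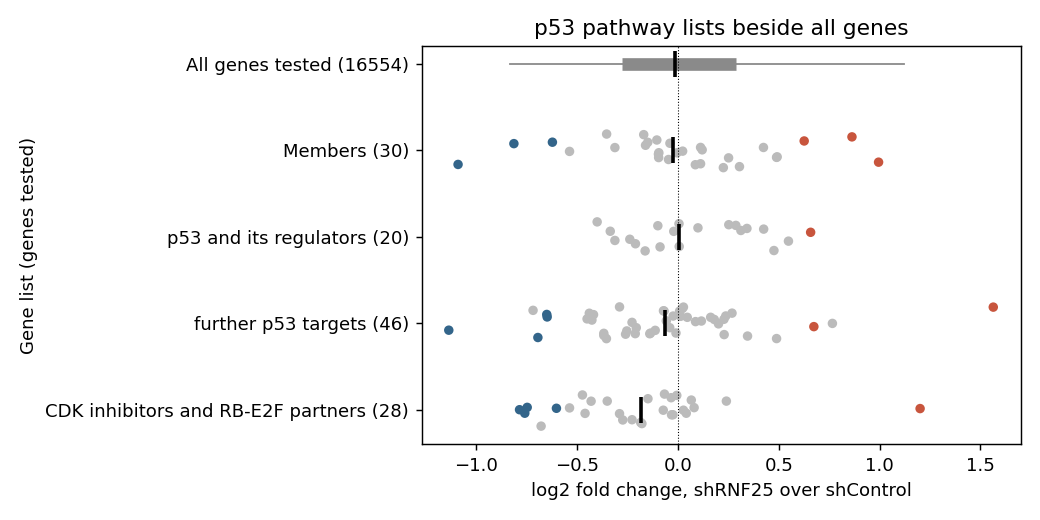
Log2 fold change, shRNF25 over shControl, of each tested gene in 4 lists (points; blue, called lower; red, called higher; grey, not called; black line, median). For all 16554 tested genes the thick bar spans the middle 50% and the thin line the middle 90%. The medians of the lists lie between -0.18 and 0.01.

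Promoter windows of 250 bases before a RefSeq start (GRCh38.p14) were found for 27 of the 31 members, 37 windows in all because some genes have several starts. The p53 site described above, searched on both strands, was in 3 of these windows (8.11%), of which 2 belong to starts of MDM2 and 1 to AEN, against 0.561% of all 35116 windows. A single p53 half-site was in 6 windows (16.2%), against 5.57%, of PLK2, SESN1, EI24, RB1, AEN and FDXR. Windows of the called genes other than MDM2 held neither. A kappa-B site, the motif bound by the NF-kB factors that the study examines, was in 4 member windows (10.8%), of ZMAT3, TIGAR, GADD45B and GDF15, against 9.96% of all. GC boxes (GGGCGG) were in 73.0% of member windows and 42.6% of all, CCAAT in 48.6% and 32.0%, TATAAA in 5.41% and 10.7%, and CACGTG in 5.41% and 6.34%. The median GC content was 66.8% in member windows and 58.0% in all windows. Overlapping windows of the same gene share most of their bases and are not independent.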

How the data were processed

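RNA from 6 libraries (3 shControl, 3 shRNF25) had been depleted of ribosomal RNA and made into stranded libraries. Per the submitters' processing notes, the authors used fastp, HISAT2 and HTSeq with GRCh38; annotation and strand setting are not given in the sources used here. The authors deposited a normalized count (a signal scaled by a factor per library, not for length) for 30267 genes. Values were whole multiples of a step per library and gave whole reads for 100% of them, within 0.01 reads. The size factors were 0.905, 0.975 and 0.927 in shControl and 1.10, 1.08 and 1.05 in shRNF25. They did not follow the reads on genes, of which shControl replicate 1 had the most (19943154) with the smallest factor. Scaling by the reads on genes was not tested.

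The 16554 genes that reached 10 in 3 or more libraries were tested on log2(normalized count + 1) with limma 3.58.1 in R 4.3.3 (eBayes with trend), group only, with Benjamini-Hochberg adjustment. Alternatives included edgeR 4.0.16 and DESeq2 1.42.0 on recovered reads. The scripts were tested on simulated data. Members and lists were chosen with earlier results of these data known. Named genes are all members, RNF25 and up to 5 called genes per direction with the largest change in each pathway list; others were chosen after their values were seen, and 2 genes that the rule would name are not reported here. Intervals are 95%. Floors of 3 reads cover counting error of the control group only. Positions come from GENCODE 29 by symbol, promoters from RefSeq. EDA2R and PAX2 were not analysed here.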

Additional observations from a re-analysis of the deposited data

How the results depend on the processing

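The calls of CDKN1A, PLK3 and CDKN2B kept their direction and adjusted p under pseudocounts of 5 and 0.5, no filter, a minimum of 50, quantile normalization, edgeR, DESeq2, the replicate block and with each library left out. With each library left out in turn, 2 to 4 members were lower and 1 to 3 higher. The p53 regulators that were higher numbered 0 to 2 and the further p53 targets that were lower 1 to 4. These fits have fewer samples, but calls did not fall each time. Genes of the table that were higher numbered 1572, 1251 and 1725 without shControl replicates 1, 2 and 3, against 1432 with all libraries. They numbered 748 and 824 without shRNF25 replicates 1 and 2. A member's call that ended without either of these shRNF25 libraries thus ended where calls fell over the whole table. With a fold change of at least 2, 1 member was lower and 0 higher, 513 genes of the table were lower and 893 higher, 0 p53 regulators were higher, 1 further p53 target was lower and 1 higher, and 0 RB-E2F partners were lower. With the adjusted p alone, 1785 genes were lower, 3 p53 regulators were higher and 7 further p53 targets lower. A minimum of 50 in 3 libraries tested fewer genes and gave 898 higher. Quantile normalization gave 3 higher p53 regulators, and the cause was not tested.

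The sign reversed for some uncalled members, and the cause was not tested: GADD45B (0.075 with quantile normalization, 0.013 with edgeR) and GDF15 (-0.021 with edgeR, -0.041 with DESeq2). With single libraries left out, log2 fold changes spanned -0.18 to 0.58 for GDF15, -0.13 to 0.016 for ZMAT3, -0.15 to 0.13 for BTG2, -0.011 to 0.19 for GADD45A, -0.17 to 0.21 for AEN, -0.056 to 0.42 for PHLDA3, -0.26 to 0.018 for CCNG1, -0.14 to 0.09 for GADD45B, -0.28 to 0.057 for FDXR and -0.15 to 0.12 for CDKN2A.

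Deviations from the group mean had correlations across genes of -0.0638, -0.0874 and 0.0471 in samples with the same replicate number. Between unlike replicate numbers they were -0.139 to 0.183. With deviations from means of 3 libraries, these values cannot decide whether the numbers pair the samples. With the replicate block 3 members were lower and 3 higher, as without it, and the adjusted p of TP53INP1 was 0.0553. Depth limits TIGAR and SPATA18, the members with the fewest reads.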
